A study of Mus musculus with 4 samples.

Results

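Siglech, Bst2, Lag3, Tcf4, Spib, Runx2, Klk1, Cox6a2 and Pacsin1 are 9 genes by which plasmacytoid dendritic cells (pDCs) are recognised, and they were followed through the bone marrow of TLR9-/- and wild-type (WT) mice. They were taken by gene symbol, as 9 of the 31053 genes in the count matrices. pDCs are rare cells of marrow and blood that sense viral nucleic acids through the endosomal receptors TLR7 and TLR9 and release large amounts of type I interferon. They arise from dendritic and lymphoid precursors under the E-protein transcription factor Tcf4, together with Spib and Runx2, and share genes with B cells. The other members of the set encode surface receptors (Siglech, Bst2 and Lag3), a protease (Klk1), a respiratory chain subunit (Cox6a2) and an adaptor of membrane traffic (Pacsin1).

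The marrow mononuclear cells of 2 mice of each genotype were sequenced cell by cell from the 5′ end of their transcripts, 1 library per mouse. Both genotypes had a C57BL/6 background, TLR9 was missing from the whole body of TLR9-/- mice, and the age and sex of these mice are not given in the sources used here. The 2 genotypes were kept in separate cages, so that cage and genotype cannot be told apart. The libraries came from 2 experiments with 1 mouse of each genotype, and the sources used here do not say which library number belongs to which experiment. Each library comes from 1 animal, and the p-values of the genotype tests within a class of cells measure the spread between these 4 libraries. Tests that compare classes used the library as a block, so that their p-values measure how class differences vary over the libraries. After filtering, 39167 cells remained, with 8895 to 10781 cells and 31210188 to 63958243 unique molecular identifiers (UMIs, tags that mark captured RNA molecules) per library. Median depths per cell were 2545 and 3618 UMIs for TLR9-/- against 1759 and 2287 UMIs for WT, and any pair of libraries shared 112 to 185 cell barcodes. Tlr9, the disrupted gene, kept 41 and 48 UMIs over all TLR9-/- cells, against 120 and 97 UMIs in WT cells. Scaled to 1000000 UMIs of the same cells (CPM), these were 0.817 and 0.751 in TLR9-/- and 3.84 and 2.34 in WT cells. The deleted stretch of Tlr9 is not given in the sources used here, so that 5′ tags check the labels only in part. Levels are given in CPM, and 4 values in a row follow the order TLR9-/- library 1, TLR9-/- library 2, WT library 1 and WT library 2.

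Cells were assigned to classes by marker genes that include no gene of the set. Cells that passed the marker rules (gates) of several classes were left out, apart from set pairs of neighbouring stages. This removed 962, 995, 797 and 854 cells. Dendritic precursor-like cells were also required to hold no UMI of Ccr9, Klra17, Cd209d, Cd300c or Sh3bgr. Low levels of pDC genes in that class are therefore partly built into its gate. This gave 1409 pDC-like cells, of which 343 and 402 were TLR9-/- and 435 and 229 WT. Of the 1409 cells, 88.1% also lay in 2 clusters, called the pDC clusters since 97.7% and 70.1% of their gated cells were pDC-like. Klk1, Siglech, Cox6a2, Bst2 and Pacsin1 of the set were among the leading genes of both. The gate rules were set on the clusters, so that this share is no independent check. There were 177 dendritic precursor-like cells, 214 lymphoid progenitor-like cells and 8439 B lineage-like cells, of which 4758 were B precursor-like and 3681 B cell-like. The dendritic precursor gate used Flt3, Cst3 and genes that conventional dendritic cells also carry, such as Zbtb46, Batf3 and Xcr1. That class can therefore hold conventional dendritic cells, and its stage was not tested. The share of pDC-like cells was 3.18% and 4.51% of TLR9-/- cells and 4.11% and 2.57% of WT cells. The ranges of the genotypes overlapped, and the share had a log2 fold change of -0.63 with a standard error of 0.46 (edgeR's quasi-likelihood test, adjusted p = 0.405 over 15 classes). Its direction turned to 0.20 when the composition factors were left out and to 0.12 without the WT library 1. All 12 pDC markers were detected in these cells, with a summed level of 10330 to 11690 CPM. This follows largely from the gate, which used all of them but Fcrla. Markers of other cells were present too. The 6 neutrophil markers summed to 479, 357, 344 and 1144 CPM, highest in the WT library 2, and the 11 B precursor markers to 332, 171, 781 and 373 CPM, highest in the WT library 1, with Lef1 at 0. The 5 T cell markers stayed between 1.42 and 7.60 CPM. The part of these other cells in the results was not tested.

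To show what the genes carry at their start, the windows from 250 bases before to 50 bases after the transcription start were read from RefSeq (GRCm38.p6) for 6 of the 9 genes. Siglech is shown as a pDC receptor gene, Bst2 for its pair of interferon-type motifs, and Klk1 and Klk1b27 because Klk1 is the gene of the set that differed between the genotypes and Klk1b27 is a neighbouring kallikrein gene with a similar start. Klk1b27 is no member of the set and was added after its values were seen. Capitals mark E-boxes (CANNTG, the letters bound by E proteins such as Tcf4) in the first 3 windows and the half-sites of interferon regulatory factors (GAAA, any 2 bases and GAAA again) in the last, where 2 overlapping matches form 1 run.
Siglech, chr7:55767934-55768233, plus strand: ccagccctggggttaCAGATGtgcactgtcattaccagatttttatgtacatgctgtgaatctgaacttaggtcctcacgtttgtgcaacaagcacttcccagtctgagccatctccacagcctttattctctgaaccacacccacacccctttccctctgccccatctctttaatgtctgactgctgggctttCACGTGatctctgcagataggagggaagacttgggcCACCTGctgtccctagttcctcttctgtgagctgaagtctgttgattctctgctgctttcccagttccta
Klk1, chr7:44225110-44225409, plus strand: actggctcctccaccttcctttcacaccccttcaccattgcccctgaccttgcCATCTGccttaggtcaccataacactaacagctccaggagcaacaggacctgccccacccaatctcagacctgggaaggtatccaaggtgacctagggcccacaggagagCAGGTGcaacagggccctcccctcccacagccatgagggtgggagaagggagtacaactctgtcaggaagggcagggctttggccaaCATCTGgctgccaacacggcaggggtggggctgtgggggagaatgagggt
Klk1b27, chr7:44052040-44052339, plus strand: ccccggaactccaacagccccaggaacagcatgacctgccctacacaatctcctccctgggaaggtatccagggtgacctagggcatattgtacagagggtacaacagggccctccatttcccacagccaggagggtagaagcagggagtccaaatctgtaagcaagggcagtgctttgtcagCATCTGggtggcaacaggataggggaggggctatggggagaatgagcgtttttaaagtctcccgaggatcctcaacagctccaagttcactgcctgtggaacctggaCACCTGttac
Bst2, chr8:71537423-71537722, minus strand: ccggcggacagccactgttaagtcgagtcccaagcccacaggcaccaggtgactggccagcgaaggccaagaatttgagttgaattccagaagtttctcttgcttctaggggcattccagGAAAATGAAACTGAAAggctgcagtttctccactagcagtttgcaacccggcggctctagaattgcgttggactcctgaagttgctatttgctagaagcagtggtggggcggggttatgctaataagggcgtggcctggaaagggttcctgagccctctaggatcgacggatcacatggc
With the transcription start counted as 0, the E-boxes began at -235, -56 and -20 in Siglech, at -197, -87 and 0 in Klk1, and at -67 and 40 in Klk1b27. Bst2, Spib and Runx2 held 2 each and Pacsin1 held 0, searched on both strands. E-boxes are common letters, found in 72.3% of 32851 mouse promoters of the same length. Bst2 alone among the windows read held the GAAA pair, with matches from -130 and from -124, and 3.44% of all promoters hold it. The Runx letters TGTGGT were found in Siglech, Runx2 and Pacsin1 and in 16.8% of all promoters. AGAGGAAG, the letters bound by PU.1 and Spi-B, was in none of the windows and in 4.55% of all promoters. The Klk1 and Klk1b27 windows aligned over 225 bases, 183 of them identical (81.3%), with Klk1 from -177 to 49 matching Klk1b27 from -244 to -19.

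Siglech (chromosome 7 of GRCm38, 55768178 to 55778925) encodes a sialic acid-binding lectin that signals in pDCs through an adaptor. Its level in pDC-like cells was 1830, 1888, 1705 and 1695 CPM. In dendritic precursor-like cells it was 22.4, 57.1, 43.9 and 0 CPM. In lymphoid progenitor-like cells it was 23, 64.2, 96 and 141 CPM. In B lineage-like cells it was between 3.29 and 7.63 CPM. Every pDC value lay far above every value of these 3 classes. The log2 fold change of pDC-like cells was 5.57 over dendritic precursor-like, 4.63 over lymphoid progenitor-like and 8.52 over B lineage-like cells, with standard errors of 0.33, 0.27 and 0.29. All 9 genes passed the edgeR test as higher in pDC-like cells in each of these 3 comparisons. Of the 7877 genes tested, 12.6% were higher in pDC-like cells than in dendritic precursor-like cells, 21.9% were higher than in lymphoid progenitor-like cells and 28.4% were higher than in B lineage-like cells. Since the set consists of known pDC genes, its count is a check of the classes.

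Bst2 (chromosome 8, 71534255 to 71537456), known as tetherin or PDCA-1, holds budding virus at the cell surface and is induced by interferon. It was measured at 5915, 5846, 5779 and 4909 CPM in pDC-like cells. In dendritic precursor-like cells it was 649, 816, 819 and 486 CPM. In B lineage-like cells it was 93.3, 82.5, 152 and 77.9 CPM. Bst2 was thus present in every class shown and highest in pDC-like cells, by 2.93 ± 0.17, 3.90 ± 0.18 and 5.82 ± 0.19 on the log2 scale (± standard error) over dendritic precursor-like, lymphoid progenitor-like and B lineage-like cells. Lag3 (chromosome 6, 124904361 to 124911705), an inhibitory receptor for MHC class II that is also used by activated T cells, stood at 96.6, 97.4, 149 and 142 CPM in pDC-like cells and at 132, 158, 104 and 144 CPM in basophil-like cells. The ranges of these 2 classes overlapped, so that pDC-like cells were not set apart by Lag3. In B lineage-like cells Lag3 was between 0.127 and 1.33 CPM, and in NK cell-like cells between 2.82 and 23.8 CPM from 1 to 3 UMIs per library.

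Among the transcription factors, Tcf4 (chromosome 18, 69343356 to 69689079), which binds E-boxes and is needed for the pDC fate, stood at 1222, 1084, 1045 and 1207 CPM in pDC-like cells. It was 122, 143, 183 and 66.7 CPM in dendritic precursor-like cells and 184, 157, 147 and 303 CPM in lymphoid progenitor-like cells. B lineage-like cells, with 97.8, 98.3, 114 and 125 CPM, lay at a similar level to these 2 classes. Tcf4 was therefore spread over lymphoid and dendritic classes at a lower level, and pDC-like cells exceeded dendritic precursor-like, lymphoid progenitor-like and B lineage-like cells by 3 ± 0.19, 2.57 ± 0.17 and 3.40 ± 0.15 on the log2 scale. Runx2 (chromosome 17, 44495987 to 44814797), a Runt-domain factor involved in the exit of pDCs from the marrow and in bone formation, followed another pattern. It stood at 569, 547, 496 and 537 CPM in pDC-like cells and at 182, 121, 139 and 66.7 CPM in dendritic precursor-like cells. In lymphoid progenitor-like cells Runx2 was 107, 97.0, 85.9 and 118 CPM, and in B lineage-like cells only 2.04 to 6.80 CPM. Its difference from pDC-like cells was 1.94 ± 0.21 for dendritic precursor-like, 2.43 ± 0.20 for lymphoid progenitor-like and 7.23 ± 0.23 for B lineage-like cells on the log2 scale. Genes on the opposite strand lie within Runx2, and whether counting used the strand is not given in the sources used here.

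Spib (chromosome 7, 44525993 to 44532071), the Ets factor Spi-B that pDCs and B cells both use, was the transcription factor that did not separate the 2 lineages. In pDC-like cells it stood at 316, 323, 264 and 323 CPM. In B cell-like cells it was 342, 272, 330 and 430 CPM, and in B precursor-like cells 155, 242, 181 and 224 CPM. pDC-like and B cell-like cells overlapped, while the summed level of B precursor-like cells was lower in every library. That sum hides a wide spread between B lineage clusters. Spib was 819, 918, 716 and 841 CPM in a cluster with Rag1 among its leading genes (median depth 966 UMIs). It was 31.1, 43.3, 38.1 and 42.7 CPM in a cluster led by Igll1 and Vpreb1 (median depth 6788 UMIs). The larger pDC cluster had 292, 316, 241 and 312 CPM, between these 2. Against the B lineage as a whole, Spib was higher in pDC-like cells by 0.37 ± 0.14 on the log2 scale (edgeR, adjusted p = 0.0239). This call was lost in the fit with no filter on low counts, in each genotype alone and without the TLR9-/- library 1, and with clusters in place of gates the value was -0.05. Its adjusted p lay between 0.00356 and 0.666 over the alternatives. Against dendritic precursor-like cells (28.8, 22.2, 7.32 and 9.53 CPM) and lymphoid progenitor-like cells (2.56, 15.7, 25.3 and 19.7 CPM), Spib was higher in pDC-like cells by 3.81 ± 0.27 and 4.46 ± 0.25.

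Klk1 (chromosome 7, 44225360 to 44229618) encodes tissue kallikrein, a serine protease best known for releasing kinins. In pDC-like cells it stood at 2104 and 2060 CPM in the TLR9-/- libraries and at 916 and 603 CPM in the WT libraries. Dendritic precursor-like and lymphoid progenitor-like cells had 0 UMIs of Klk1 in all 4 libraries, out of 869411 and 1544115 UMIs. With a floor of 3 UMIs over the 4 libraries, the mean of 1421 CPM in pDC-like cells was at least 412-fold above dendritic precursor-like cells. Above lymphoid progenitor-like cells it was at least 731-fold. This mean takes both genotypes together, and the WT libraries lay below it, so that the bounds are lower for WT cells. A count of 0 among 177 and 214 cells allows a share of cells with a Klk1 UMI of up to 1.69% and 1.40%, which covers counting error only. B lineage-like cells had 3.52, 1.10, 3.49 and 1.14 CPM. Klk1 was the only one of the 9 genes with 0 UMIs in both dendritic precursor-like and lymphoid progenitor-like cells. The dendritic precursor gate shut out cells with a UMI of 5 pDC markers, so that the 0 there is partly built in. Lymphoid progenitor-like cells that also passed the pDC gate were left out, so that their 0 can be partly built in too. In the cluster of 433 cells in which most gated cells were dendritic precursor-like, Klk1 was 139, 146, 63.7 and 42.3 CPM. The bound against dendritic precursor-like cells therefore holds for the gated cells only. Macrophage-like cells had 168, 90.3, 636 and 22.3 CPM, from 16 to 19 cells per library of which 1 to 4 held a Klk1 UMI.

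Cox6a2 (chromosome 7, 128205435 to 128206387) encodes the heart and muscle form of a cytochrome c oxidase subunit of the respiratory chain. It stood at 2786, 3073, 3102 and 3171 CPM in pDC-like cells, and at 212, 479, 632 and 641 CPM in lymphoid progenitor-like cells. In dendritic precursor-like cells it was only 3.20, 22.2, 7.32 and 9.53 CPM, and in B lineage-like cells 15, 18, 37.8 and 20.9 CPM. All Cox6a2 values of gated lymphoid progenitor-like cells thus lay above those of gated dendritic precursor-like cells, a difference that was not tested. The dendritic precursor gate shut out cells with a UMI of Ccr9, Klra17, Cd209d, Cd300c or Sh3bgr. Cells that also passed the pDC gate were left out of lymphoid progenitor-like cells too. Low Cox6a2 can therefore be partly built into either class, and the part of these rules in the difference was not tested. In the cluster in which most gated cells were dendritic precursor-like, Cox6a2 was 198, 231, 362 and 132 CPM. That range overlapped with lymphoid progenitor-like cells. The log2 fold change of pDC-like cells was 7.91 ± 0.32 over dendritic precursor-like but 2.74 ± 0.18 over lymphoid progenitor-like cells. The gene overlaps Itgad on the opposite strand. Pacsin1 (chromosome 17, 27655509 to 27711482), an adaptor of membrane traffic known from neurons and from interferon release by pDCs, stood at 322, 361, 211 and 268 CPM in pDC-like cells. Its sum over dendritic precursor-like cells was 1 UMI, in lymphoid progenitor-like cells it was 0, 15.7, 0 and 11.8 CPM, and T cell-like cells had 31.1, 38.5, 21.8 and 16.9 CPM.

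**Figure D1:**
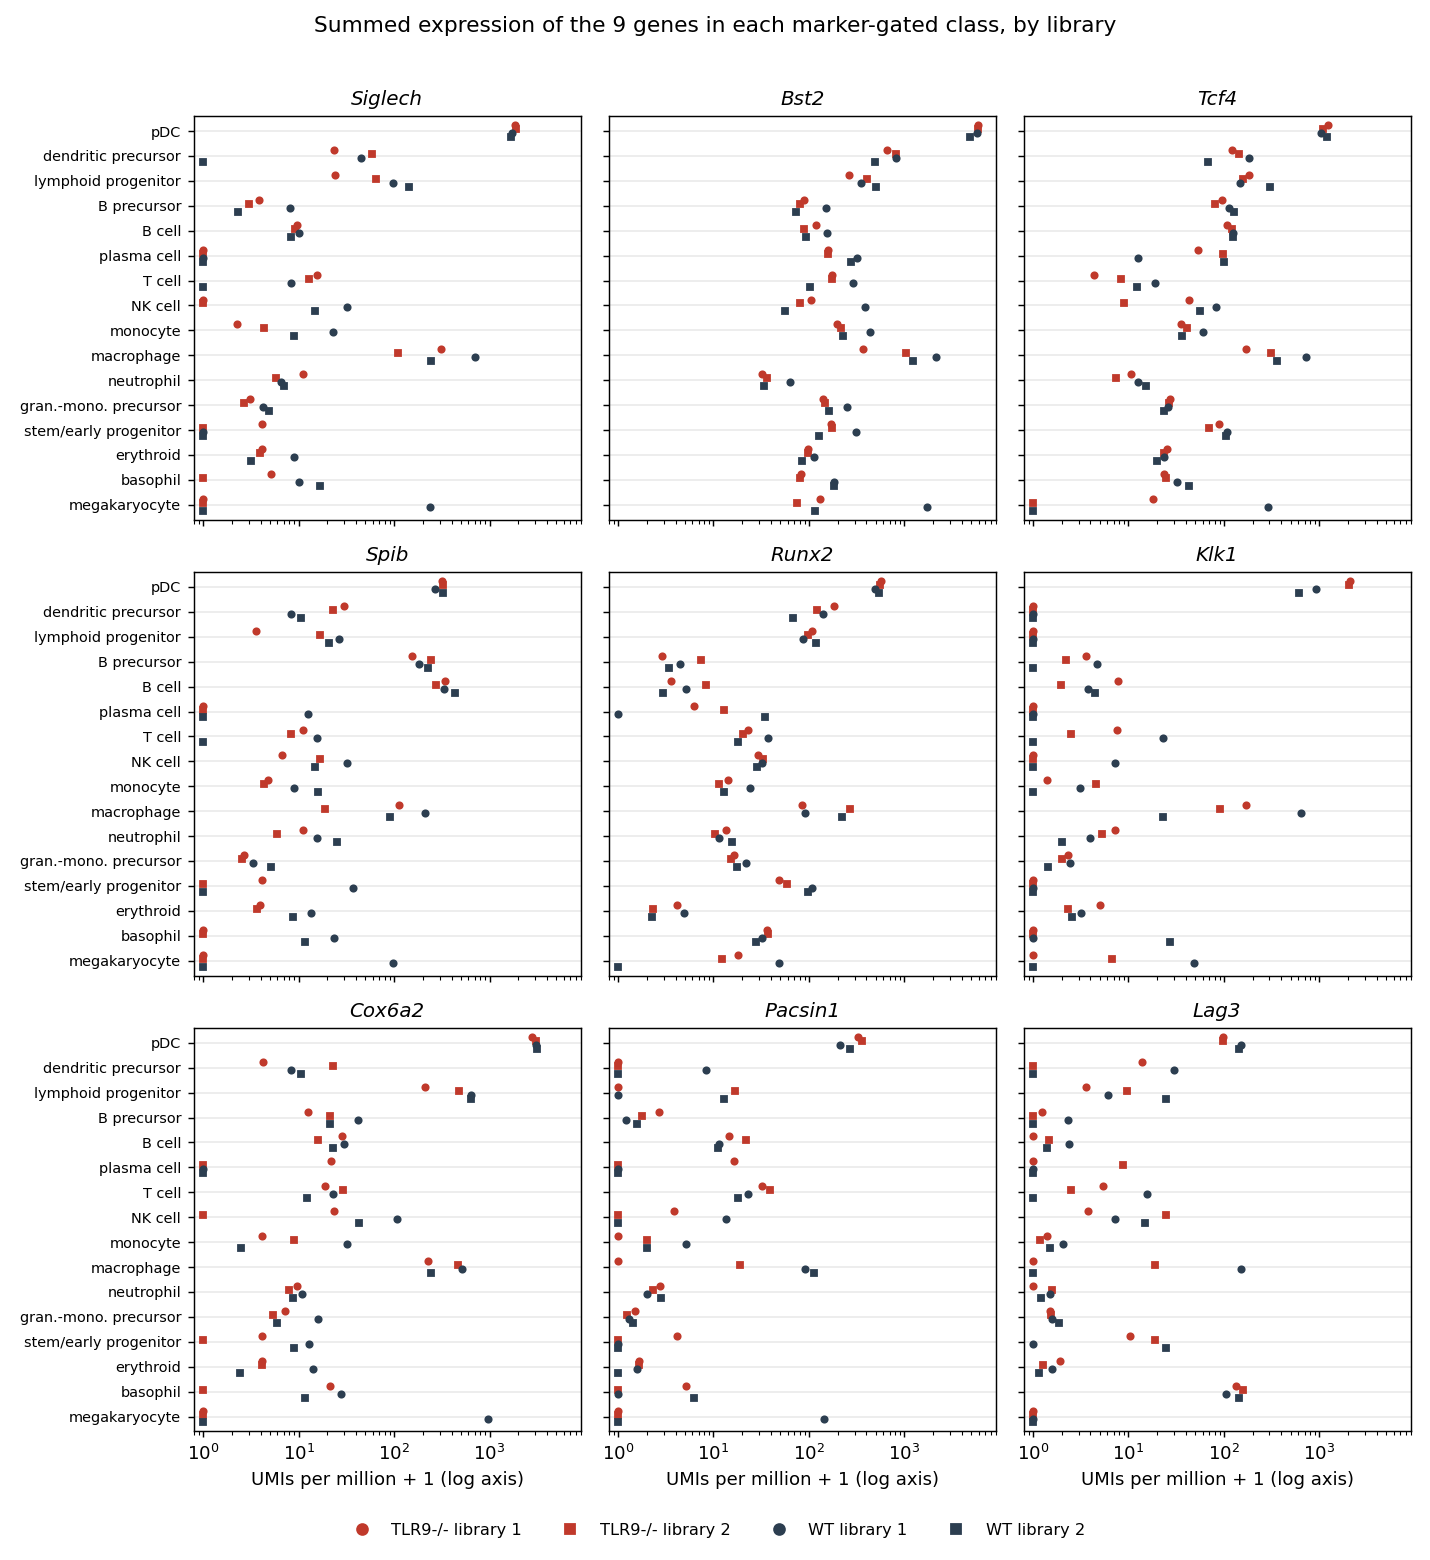
Level of each of the 9 genes in 16 marker-gated cell classes, as CPM plus 1 on a log axis, with 1 point per library (red, TLR9-/-; dark, WT; circle, library 1; square, library 2). pDC-like cells stand apart at the top for Siglech, Bst2, Tcf4, Runx2, Cox6a2 and Pacsin1, whereas Spib overlaps with B cell-like and Lag3 with basophil-like cells. Klk1 is at 0 in dendritic precursor-like and lymphoid progenitor-like cells.

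Over all 16 classes with the B lineage divided, pDC-like cells were first and did not overlap with the next class for 6 of the 9 genes, Siglech, Bst2, Tcf4, Runx2, Cox6a2 and Pacsin1. The macrophage-like class was second for Siglech (108 to 697 CPM), Bst2 (365 to 2151 CPM), Tcf4 (168 to 727 CPM), Runx2 (84.1 to 271 CPM), Klk1 and Pacsin1, and its range overlapped with that of the class after it in each. For Siglech, between 2 and 5 macrophage-like cells per library held these UMIs. The megakaryocyte-like class of the WT library 1, which had 8 cells, also stood out from the other libraries, with 240 CPM of Siglech and 1726 CPM of Bst2. Of these 8 cells, 2 (25%) lay in the pDC clusters, against 0 megakaryocyte-like cells in each of the other libraries. Among macrophage-like cells 0 lay in the pDC clusters. How the few cells of these classes came to hold pDC transcripts was not tested.

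A share of each gene's UMIs came from cells outside the gate. pDC-like cells held 48.2% to 60.7% of the Siglech UMIs, 53.5% to 66.6% of the Klk1 UMIs and 43.6% to 56.8% of the Cox6a2 UMIs of a library. The 2 pDC clusters, which contain cells with too few marker UMIs for the gate, held 70.4% to 73.7% of Siglech and 73.7% to 79.7% of Klk1. For Spib the gate held only 4.83% to 16.9%, and B precursor-like and B cell-like cells together held more in every library. For Lag3, basophil-like cells held 5.79% to 21.8% of the UMIs and pDC-like cells 30.3% to 39.5%. A cluster of 531 cells that was left unnamed, with Runx2, Flt3, Irf8 and Cox6a2 among its leading genes, had intermediate levels of most members. Siglech was 187 to 340 CPM, Bst2 1125 to 1982 CPM, Tcf4 244 to 362 CPM and Cox6a2 425 to 1205 CPM in that cluster. Klk1 was 28.0, 70.7, 12.6 and 30.9 CPM there, and Lag3 7.55 to 13 CPM. Levels of this size were not particular to that cluster. Siglech was 437, 395, 981 and 656 CPM in the cluster in which most gated cells were macrophage-like. In a cluster with mostly neutrophil-like gated cells it was 162, 204, 230 and 176 CPM. Klk1 was 320, 227, 91.5 and 57.9 CPM in a cluster with mostly erythroid-like gated cells. The stage of the unnamed cluster was not tested.

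The genes were next counted cell by cell at an equal depth of 1000 UMIs drawn at random from each cell. Cells with fewer UMIs were left out, which removed 6, 2, 8 and 4 pDC-like cells. More were removed from neutrophil-like cells (480, 127, 192 and 292) and B cell-like cells (125, 46, 305 and 147). The shares in those 2 classes therefore describe their deeper cells. Bst2 was found in 99.0% to 99.4% of pDC-like cells, Cox6a2 in 81.3% to 88.0%, Siglech in 79.2% to 81.3%, Tcf4 in 63.5% to 70.9% and Runx2 in 37.2% to 45.1%. Pacsin1 was found in 21.3% to 31.2%, Spib in 22.5% to 33.8% and Lag3 in 11% to 14.2% of these cells. In neutrophil-like cells, which served as the background, Bst2 was found in 1.76% to 4.06%, Siglech in 0.307% to 0.677%, Spib in 0.368% to 2.69%, Klk1 in 0.0840% to 0.338% and Lag3 in 0 to 0.184%. The median depth before thinning was 2088 to 3640.5 UMIs in pDC-like and 1610 to 2865 UMIs in neutrophil-like cells. Without thinning, Siglech was found in 95.9%, 99.3%, 95.2% and 98.3% of pDC-like cells and Lag3 in 21.6%, 28.6%, 28.3% and 33.2%.

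The median pDC-like cell held 5 of the 9 genes in every library at this depth, and 94.8% to 97.6% of pDC-like cells held at least 3. In dendritic precursor-like cells 4.76% to 8.51% held at least 3, in lymphoid progenitor-like cells 3.70% to 17.4%, and in B cell-like cells 0.299% to 1.10%. By library, the share among lymphoid progenitor-like cells was 3.70%, 11.4%, 5.71% and 17.4%. Of these cells, 7.41%, 7.59%, 2.86% and 10.9% lay in the pDC clusters. The WT library 2 was highest in both, but the lowest library was not the same, and a link was not tested. Within pDC-like cells, detection of 1 gene was only weakly tied to that of another. Over the 36 pairs of genes, the phi coefficient of detection, averaged over the 4 libraries, ranged from -0.033 to 0.139 with a median of 0.0225, and the pair with 0.139 was Klk1 and Cox6a2. These weak values are a description of sparse counts at a fixed depth.

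**Figure D2:**
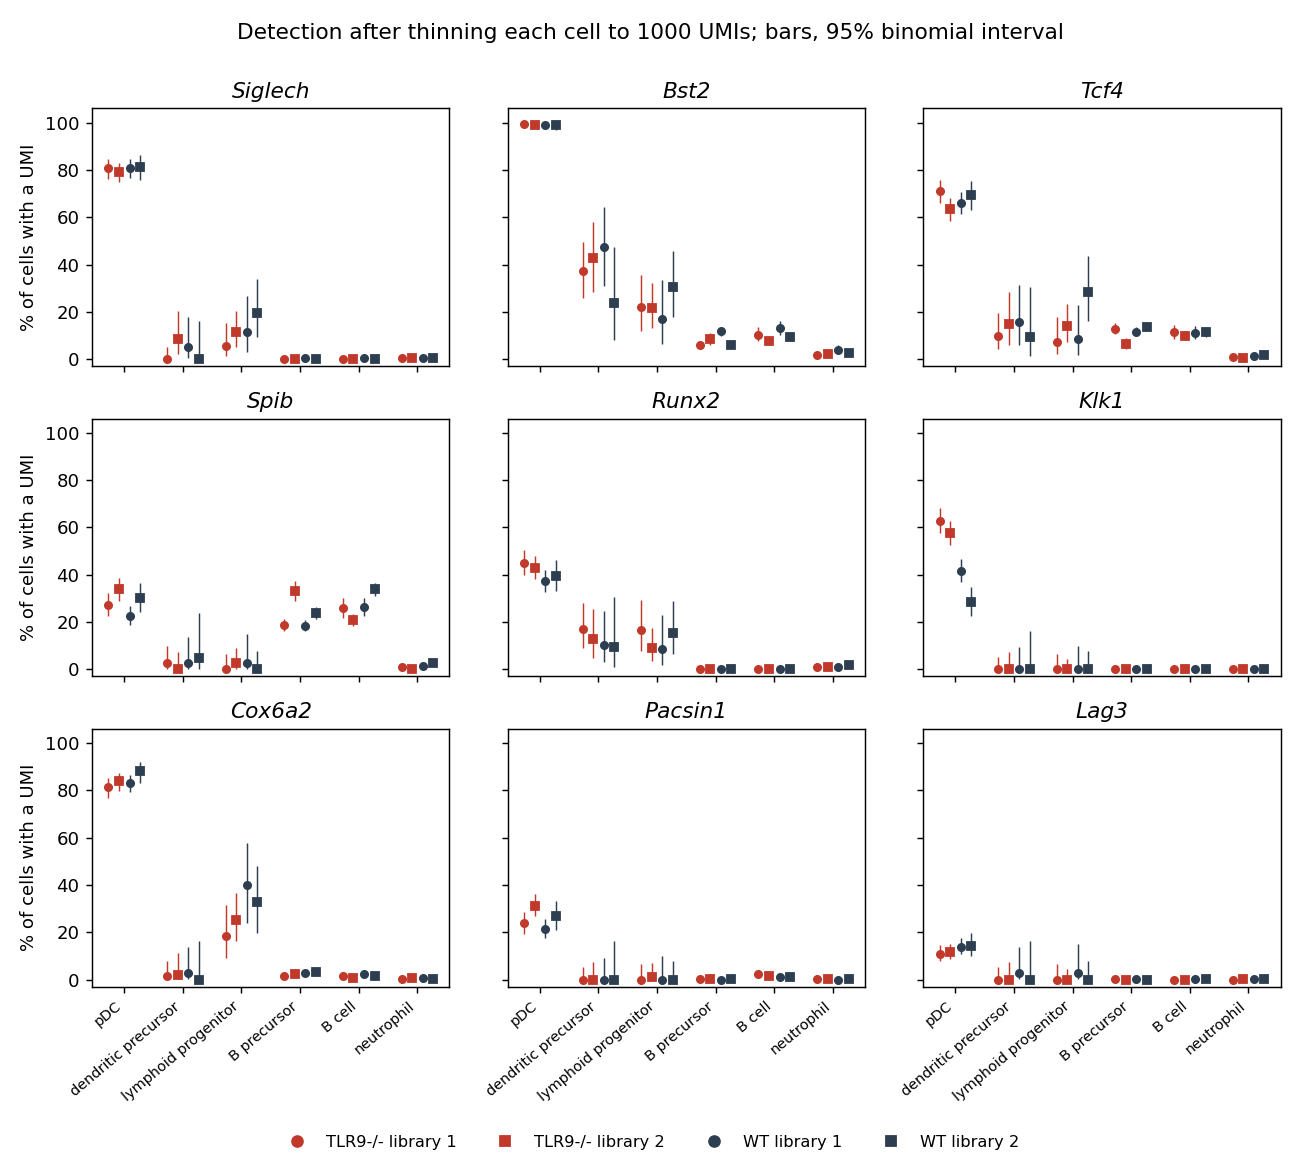
Percentage of cells with at least 1 UMI of each gene in 6 classes after every cell was reduced to 1000 UMIs, with 1 point per library and the exact binomial (Clopper-Pearson) 95% interval of counting error. Klk1 in pDC-like cells is the panel in which the TLR9-/- libraries (62.9% and 57.8%) lie furthest above the WT libraries (41.7% and 28.4%).

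To ask whether the pDC genes differed with the loss of TLR9, the UMIs of each class were summed per library and the genotypes compared by edgeR's quasi-likelihood test with Benjamini-Hochberg adjustment over all genes tested. In pDC-like cells 1 of the 9 genes, Klk1, passed the threshold, while 0.300% of the 7665 genes tested did, which is 23 genes (10 higher and 13 lower in TLR9-/-). With the library number as a replicate block 78 genes passed, Klk1 again the 1 member among them (1.48, adjusted p = 1.51e-07). Leaving out 1 library also moved the number, to 10 genes without the WT library 1, 55 without the TLR9-/- library 2 and 90 without the TLR9-/- library 1. Klk1 averaged 2082 ± 31.5 CPM in TLR9-/- and 759.5 ± 221 CPM in WT pDC-like cells (SD, n = 2 libraries per genotype), a ratio of 2.74. Its log2 fold change was 1.45 with a standard error of 0.22 (edgeR, adjusted p = 0.0273). Both TLR9-/- libraries were above both WT libraries, and the difference was larger than the spread within either genotype. The 9 genes had a median log2 fold change of 0.13, with 7 above 0, beside a median of -0.01 over all genes tested.

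The Klk1 difference was visible in several ways of counting. At 1000 UMIs per cell, Klk1 was found in 62.9% (95% Clopper-Pearson interval 57.5% to 68.1%) and 57.8% (52.7% to 62.6%) of TLR9-/- pDC-like cells. In WT pDC-like cells the share was 41.7% (37.0% to 46.5%) and 28.4% (22.6% to 34.8%). The intervals of the 2 genotypes did not overlap, and they cover counting error only. The mean difference was 25.3 percentage points, and 2 libraries against 2 allow no exact permutation p below 0.33, the value obtained (two-sided). Without thinning the shares were 74.3%, 75.1%, 52.9% and 43.2%. Among cells with a Klk1 UMI, the median was 5 and 7 UMIs in TLR9-/- and 3 in each WT library, so that both the share of cells and the amount per cell were higher in TLR9-/-. These amounts were not thinned, and the median depth of pDC-like cells was 2442, 3640.5, 2088 and 2801 UMIs. In the larger pDC cluster, Klk1 was 1688, 2055, 903 and 587 CPM, and in the smaller one 958, 1336, 545 and 186 CPM, with the same order of the genotypes in both.

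The call for Klk1 rested on the WT library 2. Without that library, which had the lowest Klk1, the log2 fold change was 1.17 and the adjusted p 0.0709 (edgeR). Across the other alternatives the log2 fold change was 1.35 to 1.83 and the call was kept, including 1.41 with marked doublets left out, 1.41 with clusters in place of gates and 1.46 in gated cells that also lay in the pDC clusters. Over all alternatives its adjusted p lay between 3.06e-11 and 0.0709. Cd300c, one of the markers used by the gate, itself differed between the genotypes, with 104, 72.6, 429 and 426 CPM (log2 fold change -2.29, edgeR, adjusted p = 0.00174). With gates that did not use Cd300c, an alternative added after seeing this, Klk1 had a log2 fold change of 1.35 (edgeR, adjusted p = 0.0279).

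Klk1 belongs to a large cluster of similar kallikrein genes on chromosome 7, and 24.0% of the 1072 windows of 50 bases in its transcripts also occur in at least 1 of 13 other Klk genes. Reads that lie wholly within such stretches cannot be given to 1 gene, so that the Klk1 count is uncertain. The share was taken over whole transcripts and not over the 5′ reads, so that it does not measure the size of this uncertainty. For the other 8 members the share was at most 0.825%. Klk1b27 (chromosome 7, 44052290 to 44056712), whose levels over classes and libraries were most like those of Klk1 (Pearson's r = 0.950 over 64 values from 16 classes and 4 libraries, described across values that share libraries), was measured at 349, 399, 197 and 167 CPM in pDC-like cells. Its likeness to Klk1 was taken over values that include these, so that a direction shared with Klk1 is no separate support. The TLR9-/- libraries were above the WT libraries by a ratio of 2.05, but Klk1b27 did not pass the threshold (log2 fold change 1.03, standard error 0.19, edgeR, adjusted p = 0.0752). It passed in 4 of 12 alternatives, namely with the replicate block (1.04, adjusted p = 0.000237), with no filter on low counts (1.05, adjusted p = 0.000996), without the TLR9-/- library 1 (1.12, adjusted p = 0.0149) and in gated cells within the pDC clusters (1.11, adjusted p = 0.0182). The highest adjusted p was 0.433, without the WT library 2. Klk1b27 shares 14.3% of its 840 windows with 9 other Klk genes.

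**Figure D3:**
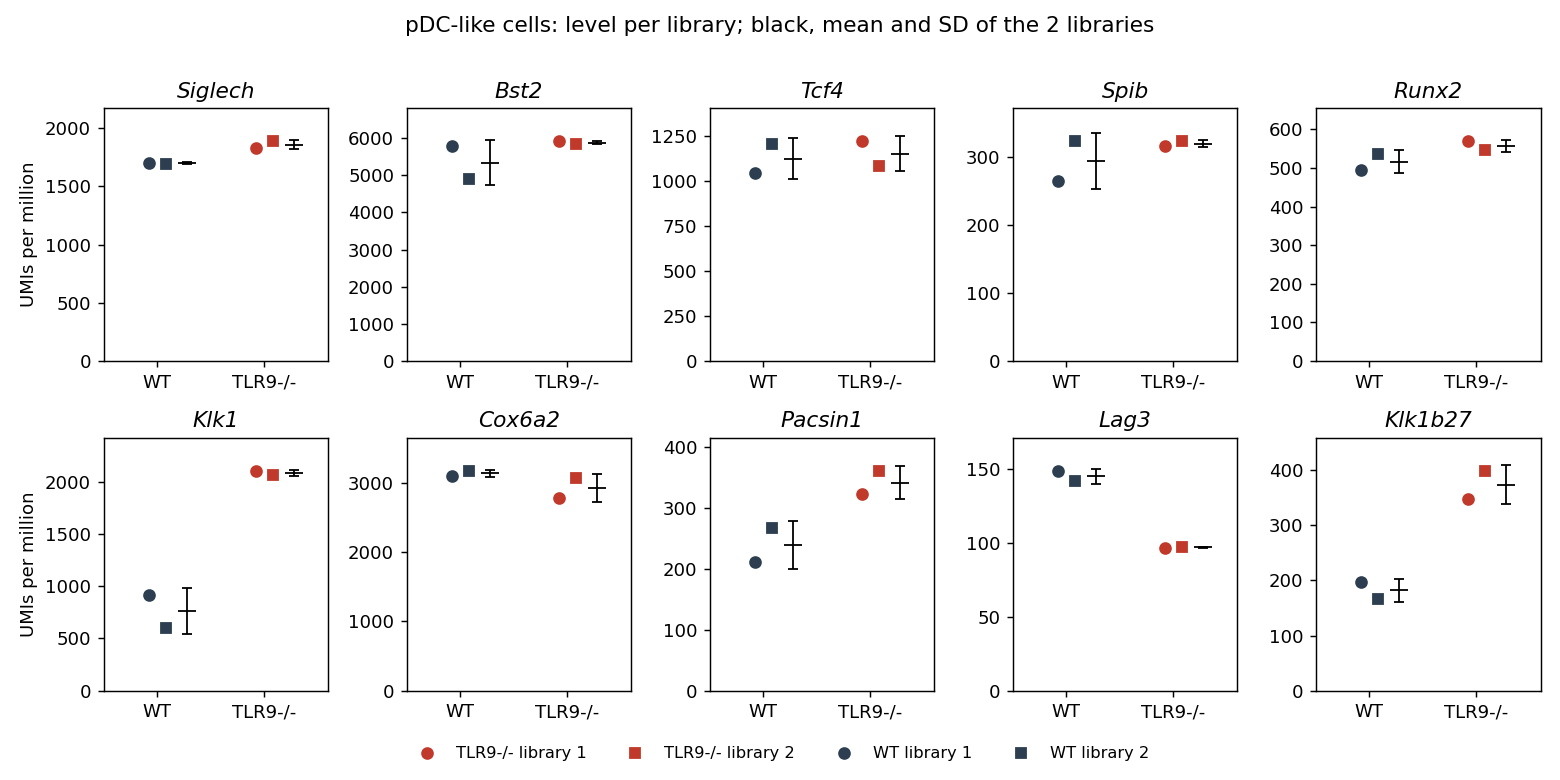
Level of the 9 genes and of Klk1b27 in pDC-like cells, in CPM on an axis from 0, with 1 point per library and the mean and SD of the 2 libraries of each genotype in black. Klk1 lies at 2104 and 2060 in TLR9-/- against 916 and 603 in WT, while Siglech, Bst2, Tcf4, Spib, Runx2 and Cox6a2 differ little.

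The remaining 8 genes did not pass the threshold in pDC-like cells. Lag3 was 97.0 ± 0.52 CPM in TLR9-/- and 145.2 ± 5.07 CPM in WT (SD, n = 2), 1.5-fold higher in WT, with a log2 fold change of -0.58 and a standard error of 0.18 (edgeR, unadjusted p = 0.00956, adjusted p = 0.668). Pacsin1 was 341.7 ± 27.2 CPM in TLR9-/- and 239.5 ± 39.8 CPM in WT, with a log2 fold change of 0.52 and a standard error of 0.19 (edgeR, unadjusted p = 0.0190, adjusted p = 0.788). Neither pair of groups overlapped, Lag3 lying lower and Pacsin1 higher in both TLR9-/- libraries. Without overlap between the genotypes were 7 of the 9 genes, all but Tcf4 and Spib, yet 35.0% of all genes tested showed this with 2 libraries against 2. After thinning, Lag3 was found in 11% and 11.5% of TLR9-/- and 13.8% and 14.2% of WT pDC-like cells, and Pacsin1 in 23.7% and 31.2% against 21.3% and 26.7%, where the groups overlapped.

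For the other 6 genes the differences were small. The log2 fold change was 0.13 for Siglech, 0.14 for Bst2, 0.04 for Tcf4, 0.13 for Spib, 0.12 for Runx2 and -0.10 for Cox6a2, with standard errors of 0.15 to 0.18 and adjusted p values of 0.959 to 0.989 (edgeR). In units of level, Siglech was 1859 ± 41.2 CPM in TLR9-/- and 1700 ± 6.86 CPM in WT, and Tcf4 was 1153 ± 97.6 and 1126 ± 114 CPM (SD, n = 2). For Tcf4 the direction changed with clusters in place of gates (-0.06), without the TLR9-/- library 1 (-0.06) and without the WT library 1 (-0.02). These tests do not show that the levels were the same, and with 2 libraries per genotype a small difference was not detectable. Tlr9 itself was low in pDC-like cells, with 6 and 10 UMIs in TLR9-/- against 27 and 8 UMIs in WT (6.51, 6.20, 25.6 and 11.3 CPM, log2 fold change -1.61, edgeR, adjusted p = 0.644).

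**Figure D4:**
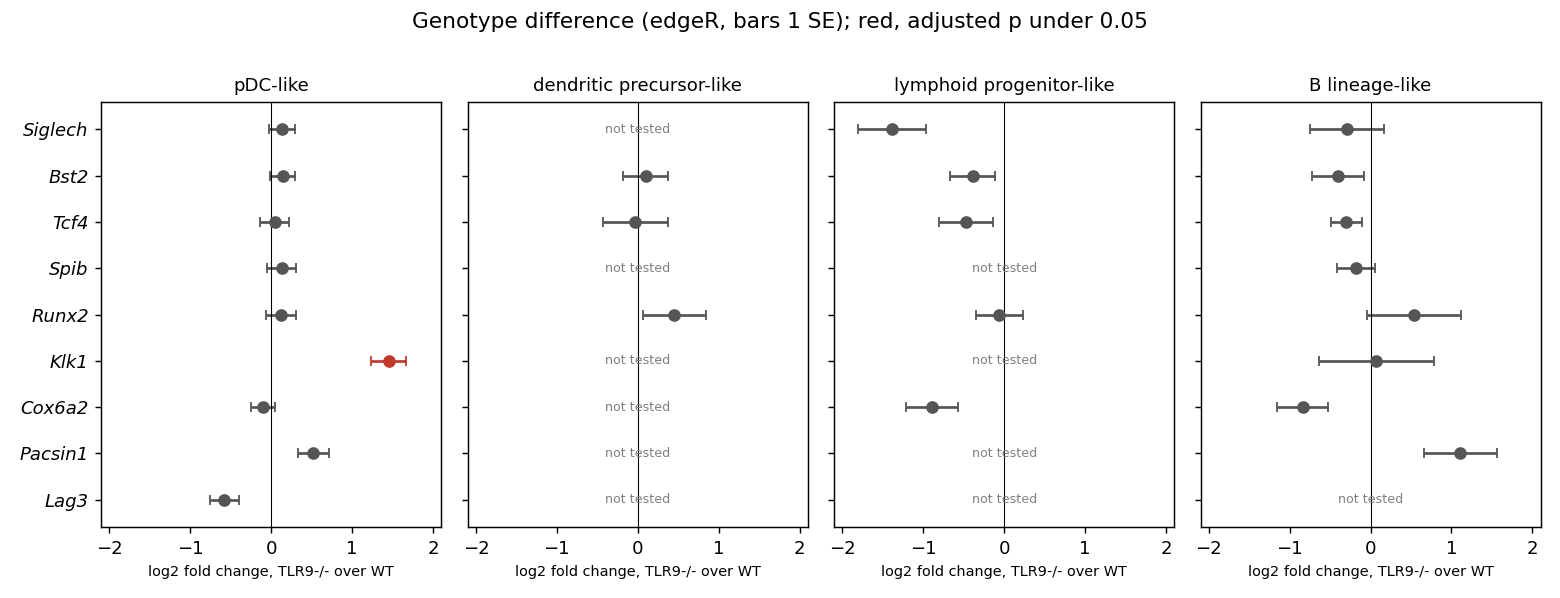
Log2 fold change of TLR9-/- over WT (edgeR, bars are 1 standard error) for the 9 genes in 4 classes, with genes below the count filter given as not tested. Klk1 in pDC-like cells (1.45, in red) is the value past an adjusted p of 0.05, and Siglech (-1.38) and Cox6a2 (-0.89) lie furthest below 0 in lymphoid progenitor-like cells.

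Among lymphoid progenitor-like cells, 5 of the 9 genes passed the count filter. None of the 5 passed the edgeR test, in a comparison where 0.0714% of 4200 genes did, and Siglech and Cox6a2 had an unadjusted p under 0.05. DESeq2 also called 0 of them. Siglech was 23 and 64.2 CPM in TLR9-/- against 96 and 141 CPM in WT, from 9, 45, 19 and 36 UMIs (log2 fold change -1.38, standard error 0.42, unadjusted p = 0.00748, edgeR, adjusted p = 0.782). Cox6a2 was 212 and 479 CPM in TLR9-/- against 632 and 641 CPM in WT (log2 fold change -0.89, standard error 0.32, unadjusted p = 0.0173, edgeR, adjusted p = 0.900). For both, the TLR9-/- library 1 was the lowest, and the 2 genotypes did not overlap. The share of all genes without overlap was not computed for this class, and it was 35.0% in pDC-like cells. Without the TLR9-/- library 2 the log2 fold changes were -2.38 for Siglech and -1.59 for Cox6a2, in a fit with a lone TLR9-/- library. With the library number as a replicate block both passed (Siglech -1.45, edgeR, adjusted p = 0.00321, and Cox6a2 -0.96, adjusted p = 0.00112), and 25 genes passed in all. Since the genotypes did not overlap for either gene, the TLR9-/- library was the lower one in any pairing of the libraries. Bst2 (261, 405, 349 and 507 CPM) and Tcf4 overlapped between the genotypes. The 12 pDC markers summed to 2333, 3513, 2809 and 3772 CPM in lymphoid progenitor-like cells, also lowest in the TLR9-/- library 1. Of the lymphoid progenitor-like cells, 4, 6, 1 and 5 (7.41%, 7.59%, 2.86% and 10.9%) lay in the 2 pDC clusters. The part of these cells and markers in the result was not tested.

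The genotype difference in pDC-like cells was then compared with that in each other class by an interaction term. For Siglech the log2 fold change in pDC-like cells exceeded that in lymphoid progenitor-like cells by 1.51 ± 0.32 (edgeR, unadjusted p = 0.000126, adjusted p = 0.202), and for Cox6a2 by 0.84 ± 0.22 (unadjusted p = 0.000945, adjusted p = 0.607). None of the 9 genes passed this test against any class. The shares of all genes that did were 0.0912% against dendritic precursor-like, 0.0375% against lymphoid progenitor-like and 0.0466% against B lineage-like cells. For Klk1 the term against B lineage-like cells was 1.39 ± 0.46 (adjusted p = 1), and none was computed against the 2 classes with 0 UMIs of Klk1. In dendritic precursor-like cells only Bst2, Tcf4 and Runx2 had enough UMIs for a test, and 0 of these 3 passed, as did 0 of 3010 genes (0%), while 124 genes had an unadjusted p under 0.05 and DESeq2 called 0 genes. In B lineage-like cells 0 of 8 members passed, against 0.244% of 10669 genes, and DESeq2 called 0 of them. Cox6a2 (15 and 18 against 37.8 and 20.9 CPM, log2 fold change -0.84) and Pacsin1 (4.26 and 9.87 against 2.66 and 3.67 CPM, log2 fold change 1.11) had unadjusted p values of 0.0276 and 0.0393 there (edgeR). Without the TLR9-/- library 1 the log2 fold change of Pacsin1 was 1.58.

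The genes around the set were read from 3 lists. Of 17 regulators of the pDC and dendritic cell fate, 16 were tested in pDC-like cells, 1 was higher in TLR9-/- and 0 were lower, with a median log2 fold change of -0.08. The one was Id3, an inhibitor that binds E proteins and keeps them from DNA, at 415 and 398 CPM in TLR9-/- against 61.6 and 87.8 CPM in WT (log2 fold change 2.46, standard error 0.21, edgeR, adjusted p = 0.000758). Both TLR9-/- libraries were thus far above both WT libraries for Id3, while its relative Id2 was near the detection limit with 7 to 16 UMIs per library (0.31). Irf8, the factor shared by dendritic cells and monocytes, was 2687, 3403, 2394 and 3137 CPM, overlapping between the genotypes, and Bcl11a was 434, 360, 364 and 411 CPM. Irf8 and Bcl11a were named for their roles after their values were seen. The lowest log2 fold changes of the list were those of Zeb1 (-0.71) and Irf4 (-0.66), which did not pass.

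Of 15 genes of nucleic acid sensing and interferon induction, 13 were tested and 0 passed the edgeR test in either direction (median 0.07). Irf5, which acts downstream of endosomal TLRs, had the highest value (92.3, 104, 65.4 and 49.6 CPM, log2 fold change 0.76, unadjusted p = 0.00689, adjusted p = 0.562), followed by Irf7 (0.45). Apart from Tlr9 itself (-1.61), the lowest was Traf3, an adaptor of TLR signalling (-0.22, adjusted p = 0.984). Tlr7, the partner receptor of TLR9, was 98.8, 62.0, 108 and 36.8 CPM, with the groups overlapping. Of 15 interferon-stimulated genes, the company of Bst2, 11 were tested and 0 passed (median -0.50). The lowest were Oasl2 (9.77, 12.4, 24.6 and 11.3 CPM, log2 fold change -0.74) and Ly6a (620, 573, 1390 and 435 CPM, -0.63), and the highest Irf7 (228, 251, 245 and 99.2 CPM, 0.45) and Xaf1 (34.8, 26.1, 37.9 and 12.8 CPM, 0.14). The genotypes overlapped for each of these 4 genes. The WT library 1 was the highest for Oasl2, Ly6a and Xaf1. Ifi27l2a, which had the most UMIs of the list and was named after its values were seen, was 1341, 1360, 2393 and 1534 CPM, lower in both TLR9-/- libraries (log2 fold change -0.54, edgeR, unadjusted p = 0.0335, adjusted p = 0.873). Bst2 was 5779 and 4909 CPM in the WT libraries, below both TLR9-/- libraries.

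The 23 genes that passed in pDC-like cells lay on 11 chromosomes. Apart from Klk1, those with the lowest adjusted p were the following. Higher in TLR9-/- were BC018473 (155 and 295 UMIs against 0 and 0), Id3, Gm6594 (33 and 76 UMIs against 0 and 0), Ocel1 (log2 fold change 1.94) and Mid1 (2.36). Lower in TLR9-/- were Trim12a (0 and 0 UMIs against 86 and 57), Cd300c, Trim30d (1 and 7 UMIs against 73 and 39), Adam11 (-2.35) and Padi1 (-2.96). Of the 23 genes, 5 lay on chromosome 7, Klk1 among them, 4 on chromosome 11 and 3 each on chromosomes 4 and 8. The others on chromosome 7 (Gm35082, Trim5, Trim12a and Trim30d) lay between 100675088 and 104507849, far from Klk1 at 44225360. The share of all tested genes on these chromosomes was not computed. Near Bst2 lie Mvb12a (5.5 kb away), which was lower in TLR9-/- (log2 fold change -1.18, edgeR, adjusted p = 0.0476), and Ocel1 (154.9 kb away), which was higher. Mvb12a, named after its values were seen, lies on the other side of Bst2 from Ocel1.

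The genes whose levels over the classes were most like those of Siglech, apart from the set and the gate markers, were Ddr1 (Pearson's r = 0.901 of log2(CPM + 10) over 64 values from 16 classes in 4 libraries), Pltp (0.885), Cdh5 (0.845), Gm21762 (0.843) and Tlr7 (0.843), out of 13321 genes. Within the set, Cox6a2 was closest (0.927), then Klk1 (0.883), Bst2 (0.867), Pacsin1 (0.834), Tcf4 (0.809) and Runx2 (0.782). Spib (0.581) and Lag3 (0.537), which the B cell-like and basophil-like classes also express, were least like Siglech. The values share libraries and are given as a description.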

How the data were processed

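Bone marrow mononuclear cells of 2 TLR9-/- and 2 WT mice were profiled by 5′ droplet sequencing. The authors deposited 1 matrix of raw UMI counts per library, made with Cell Ranger (STAR, mm10, per the labels). Seurat 2.3.4 is also named in the submitters' processing notes, but its output was not used here. Cells with fewer than 200 or more than 10000 genes, or over 10% mitochondrial UMIs (the methods print 0.10%, read as a fraction), were removed. No total-depth correction was made before counting, and doublets were kept in the main results.

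Cells were gated by marker genes into 15 classes. The gate rules were set on the clusters of the cells, without the 9 genes and without the genotype, after the cells had been clustered. Counts were summed per class and library and tested with edgeR 4.0.16 (R 4.3.3; TMM factors, filterByExpr, quasi-likelihood test, two-sided, Benjamini-Hochberg, threshold 0.05). Comparisons between classes used the library as a block. DESeq2 1.42.0 served as an alternative. Clusters came from scanpy 1.11.5 (2000 variable genes without the 9, 30 components, Leiden resolution 2) and doublet marks from its Scrublet. The edgeR genotype fits were run on simulated counts with known fold changes. These counts had the same spread for every gene and no effect of the experiment. They therefore do not test how reliable the genotype calls are where such effects exist.

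Named genes were the 9 members, Tlr9, list genes that passed or were the 2 furthest from 0 in each direction, the 5 genes most like Siglech, and the 5 with the lowest adjusted p in each direction in pDC-like cells. Members and lists were chosen with earlier results of these data known. Positions are from GENCODE vM21 (GRCm38), promoters from RefSeq.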

Additional observations from a re-analysis of the deposited data

How the results depend on the processing

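Alternatives were RLE factors, no filter on low counts, DESeq2, clusters in place of gates, doublets left out, a replicate block and leaving out each library; gates without Cd300c and gated cells within the pDC clusters were chosen after seeing the data. In pDC-like cells 23 genes passed, against 103 with no filter, 37 in gated cells within the clusters and 10 to 90 without 1 library, with 0 to 1 members. In dendritic precursor-like cells clusters gave 7 genes and leaving out a library 0 to 6 (members 0 to 0). In lymphoid progenitor-like cells no filter gave 35 genes and leaving out a library 4 to 35, with 0 to 2 members; clusters gave no such class. In B lineage-like cells no filter gave 193, DESeq2 45 and leaving out a library 22 to 396, with 0 to 1 members (Pacsin1, 1.58, without the TLR9-/- library 1). Higher in pDC-like than in B lineage-like cells were 8 to 9 members without 1 library.

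With the replicate block, 78 genes passed in pDC-like, 25 in lymphoid progenitor-like and 62 in B lineage-like cells. The 2 experiments each held 1 mouse of either genotype, but the sources do not tie the numbers to them. Deviations of same-numbered libraries correlated by 0.26, 0.17, 0.18 and 0.33 (pDC-like, dendritic precursor-like, lymphoid progenitor-like, B lineage-like). A cluster led by immunoglobulin variable genes, in which 83.0% of the gated cells were neutrophil-like, held 173, 4, 126 and 4 cells. Both are a hint of pairing that 2 pairs do not settle. With the block, Klk1 had 1.48 and Klk1b27 1.04 in pDC-like cells, and 2 members passed in lymphoid progenitor-like cells, Siglech (-1.45, adjusted p = 0.00321) and Cox6a2 (-0.96, adjusted p = 0.00112); Klk1 in B lineage-like cells turned to -0.02.

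Directions turned elsewhere, in no case past the threshold. Clusters gave -0.06 for Tcf4 in pDC-like, -0.26 for Bst2 and -0.37 for Runx2 in dendritic precursor-like, 0.34 for Siglech in B lineage-like cells and -0.05 for Spib in pDC-like against B lineage-like cells. No filter gave 0.04 for Tcf4 in dendritic precursor-like and 0.05 for Runx2 in lymphoid progenitor-like cells, and leaving out doublets 0.14 for Tcf4 in dendritic precursor-like cells. Without 1 library the ranges that crossed 0 were -0.06 to 0.16 (Tcf4 in pDC-like), -0.49 to 0.88 (Tcf4) and -0.18 to 0.49 (Bst2) in dendritic precursor-like, -0.87 to 0.22 (Tcf4) and -0.25 to 0.25 (Runx2) in lymphoid progenitor-like, and -0.81 to 0.44 (Siglech), -0.82 to 0.18 (Bst2), -0.51 to 1.18 (Runx2), -1.06 to 1.05 (Klk1) and -0.36 to 0.02 (Spib) in B lineage-like cells. The share of pDC-like cells was 0.20 without composition factors and -1.14 to 0.12 without 1 library. That of lymphoid progenitor-like cells was 0.71 without factors, 0.17 without doublets, 0.19 with gates without Cd300c and -0.77 to 0.48 without 1 library. That of dendritic precursor-like cells was -0.01 in cells of at least 2000 UMIs and -0.29 to 0.80 without 1 library. The causes were not tested.

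In dendritic precursor-like and lymphoid progenitor-like cells, with 22 to 79 cells per library, 4 to 6 members did not pass the count filter, among them Klk1 with 0 UMIs.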
